A study of Arabidopsis thaliana and Arabidopsis thaliana x Arabidopsis arenosa with 9 samples.

Results

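Cytosolic ribosomal protein genes encode the proteins that, together with ribosomal RNA, form the large (60S) and small (40S) subunits of the ribosome that translates nuclear messages. In Arabidopsis thaliana each of these proteins is usually encoded by a small family of near-equivalent genes scattered over the nuclear genome, and their short transcripts are among the most abundant in dividing tissue. A lateral stalk built on P0 and carrying P1 recruits the translation factors, and RACK1, a WD-repeat protein of the small subunit head, links the ribosome to signalling proteins. The members described here are 49 loci of the 33602 in the deposited table of counts, taken from a list by locus identifier. No measured value was a criterion, but the list was chosen with earlier results of these data known. They encode 30 proteins: 23 loci belong to the large subunit core, 5 to the stalk (P0 and P1) and 20 to the small subunit, and the last is RACK1A. All 49 were found in the table and in the TAIR10.1 annotation, and all 49 passed the filter, which asked for 10 or more counts in 2 or more libraries.

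The samples were whole seeds at 3 days after pollination from the cross Col-0 X C24, with Col-0 as the seed parent, and of its reciprocal, C24 X Col-0, and are named below by their seed parent. Col-0 and C24 are wild-type accessions, and the seed parents of both crosses were hemizygous for a male sterility construct (the A9 lines), so that both groups carry it on the maternal side. Each cross had 2 mRNA-seq libraries, stated to be biological replicates and made from pooled seeds of many siliques, and replicate 2 of both crosses had been treated with duplex-specific nuclease and amplified again. This enzyme cuts double-stranded DNA, and after denaturation the abundant cDNAs find their partners first, so the treatment is used to thin abundant messages. The replicate number and the treatment are therefore the same variable. Beside replicate 1 of each cross the table holds a further column marked N, whose meaning is not given in the sources used here. It was kept apart and compared only with the unmarked column of the same name.

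Totals were 3538335 reads for replicate 2 and 6498145 for replicate 1 with a Col-0 seed parent, and 5521691 for replicate 2 and 6101597 for replicate 1 with a C24 seed parent. The columns marked N held 3876803 and 3395442 reads. Replicate 2 with a C24 seed parent stood apart, with reads on 29250 loci against 19828 to 20580 in the other columns. Library composition differed strongly, so fold changes are on the scale of TMM (trimmed mean of M-values, a scaling that sets the bulk of loci to no change) and a level compared between libraries is in CPM, counts per 1000000 reads after TMM scaling. Defining markers of the seed were present: all 7 seed coat markers had reads in every column. Their summed level was 7384 CPM in replicate 2 and 10242 in replicate 1 with a Col-0 seed parent, and 9095 in replicate 2 and 20549 in replicate 1 with a C24 seed parent. The 5 green tissue markers summed to 409.5 and 1092 with a Col-0 seed parent, and to 1604 and 2716 with a C24 seed parent, replicate 2 given before replicate 1. The 7 endosperm markers summed to 85.9 and 94.01 with a Col-0 seed parent, and to 146 and 273 with a C24 seed parent. One of them, SUC5, had 42.7 and 69.5, and 64.7 and 232, in the same order. Of the 6 endosperm markers that were tested, 4 had a log2 fold change above 0 in replicate 2 and 2 below 0. Of the 4 embryo markers 2 to 4 had reads, summing to 31.6 and 3.34 with a Col-0 seed parent and to 23.02 and 4.35 with a C24 seed parent. The part of tissue make-up in the results below was not tested, and in whole seeds fewer cells of a type and less RNA per cell cannot be told apart.

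Counts on the members were high. Within a library the median member had 1126 to 2463 reads in the 4 mRNA-seq libraries, and the median member lay at the 98.4th to 99.0th percentile of all loci with reads when levels were taken per length (counts per 1000000 reads of the library, without TMM, per kilobase of the longest transcript). The lowest member in every column was RPSAb (AT3G04770), the minor locus of the small subunit protein SA, with 40 and 80 reads in replicates 2 and 1 with a Col-0 seed parent and 61 and 66 reads in replicates 2 and 1 with a C24 seed parent. Between the highest and the lowest member the level per length differed 73.9 to 124-fold within a library. The most abundant by mean level per length over the 4 libraries was emb2386 (AT1G02780, L19, a large subunit protein at the subunit interface). Its level was 701 in replicate 2 and 859 in replicate 1 with a Col-0 seed parent, and 566 in replicate 2 and 876 in replicate 1 with a C24 seed parent. SAC52 (AT1G14320, L10, which joins the large subunit late in its maturation) followed with 601 and 736, and 584 and 848 per kilobase in the same order. These values rank loci within a library. In CPM after TMM scaling, in that order, emb2386 had 707 and 1089, and 633 and 1613. SAC52 had 609 and 939, and 657 and 1570 CPM. STV1 (AT3G53020, L24), EMB2296 (AT2G18020, L2/L8, a protein near the peptidyl transferase centre) and RP1 (AT1G43170, L3, another protein near that centre) completed the first 5, with means of 532, 518 and 509 per kilobase. Their order was not stable: EMB2296 had the highest level per length of all members in replicate 1 with a C24 seed parent, at 958, and 86.2 in replicate 2 with a Col-0 seed parent.

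**Figure D1:**
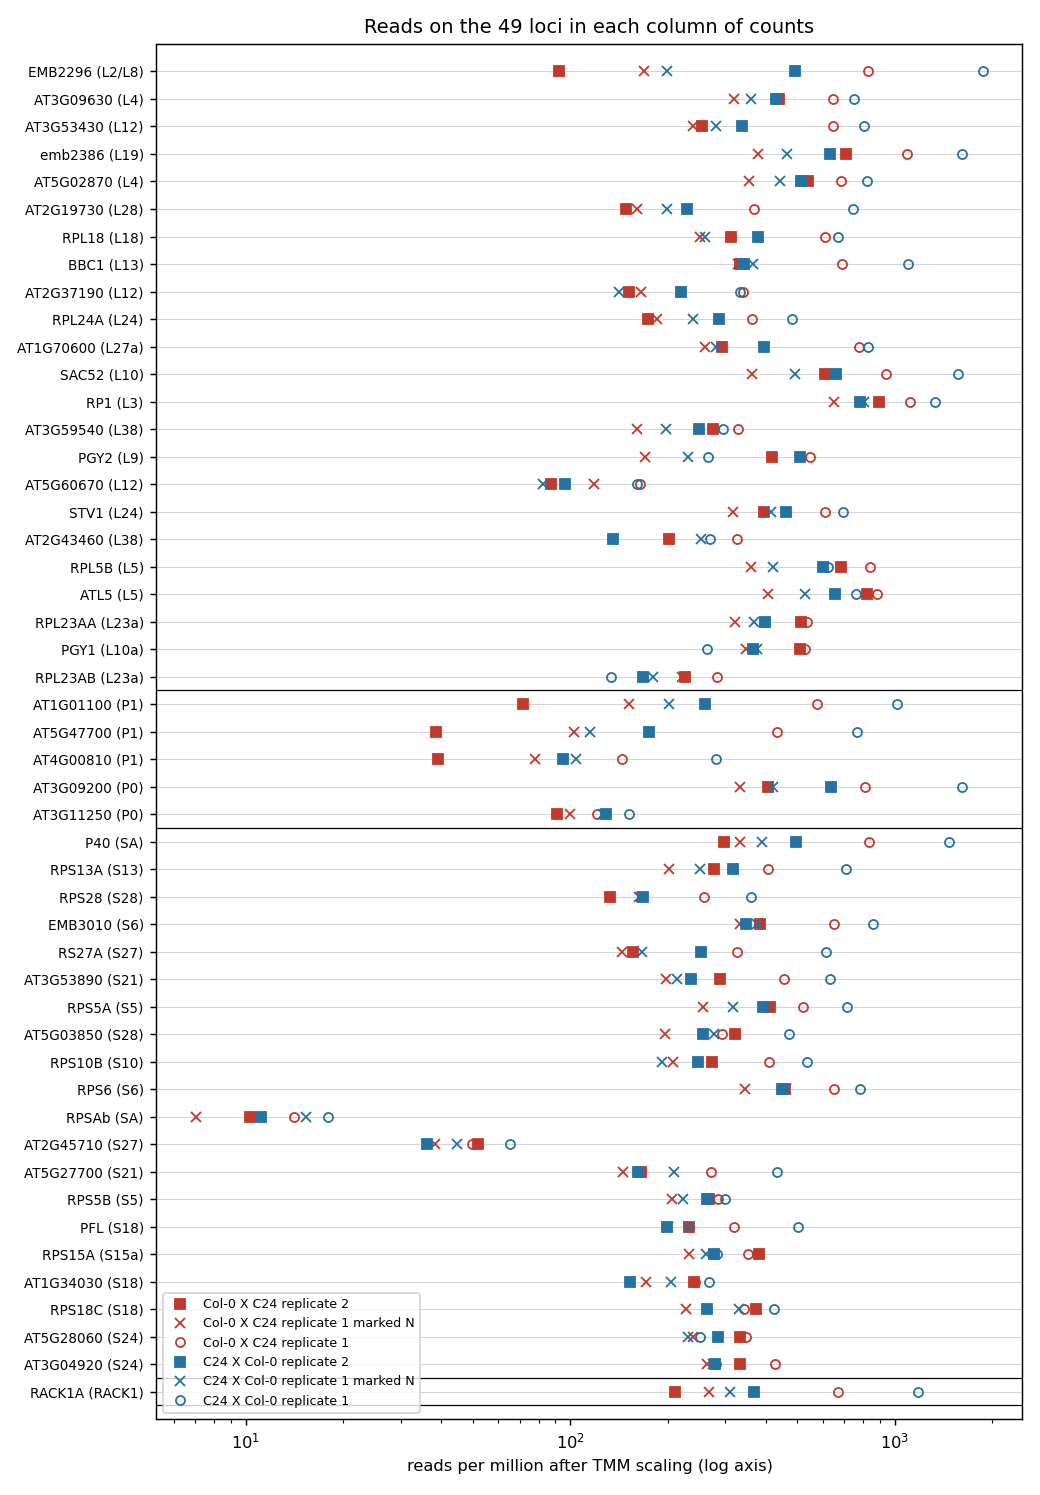
Level in CPM after TMM scaling (log axis) for each of the 49 loci, grouped from top to bottom as large subunit, stalk, small subunit and RACK1A and sorted by coding GC content within a group. Red is Col-0 X C24 and blue is C24 X Col-0; filled squares are replicate 2, crosses the columns marked N and open circles replicate 1, and the open circles lie right of the squares and crosses for most loci, with RPSAb far left at 7.02 to 18.0.

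Together the 49 loci took 1.69% of the reads (95% Wilson interval 1.67% to 1.70%) in replicate 2 and 2.13% (2.12% to 2.14%) in replicate 1 with a Col-0 seed parent. With a C24 seed parent they took 1.60% (1.59% to 1.61%) in replicate 2 and 1.91% (1.90% to 1.92%) in replicate 1. These intervals cover counting error only, because amplified reads are not independent molecules. The share was lower in replicate 2 than in replicate 1 in both crosses, and it was higher with a Col-0 seed parent than with a C24 seed parent at both replicate numbers. The ranges of the crosses overlapped, and with 2 libraries against 2 no two-sided exact permutation test can give a p under 0.333. In the columns marked N the share was 1.62% (1.61% to 1.63%) with a Col-0 seed parent and 1.71% (1.70% to 1.72%) with a C24 seed parent, both below the unmarked columns. A summed share is relative to the library total, so it uses no TMM scaling but shifts with library composition. The direction between the crosses depended on this choice. With a Col-0 seed parent 36 of the 49 members had an edgeR log2 fold change below 0 with TMM, and 16 with library totals. The fall in replicate 2 kept its sign in the median: the median log2 fold change of the members was -0.83 with TMM and -0.30 with library totals. Above 0 were 5 of the 49 members with TMM and 17 with library totals. Part of the members carried most of the fall: the 9 loci whose coding sequence has more than 50% G and C took 0.236% in replicate 2 and 0.512% in replicate 1 with a Col-0 seed parent, and 0.326% and 0.588% with a C24 seed parent. The 13 loci under 46% took 0.576% in replicate 2 and 0.528% in replicate 1 with a Col-0 seed parent, and 0.420% and 0.310% with a C24 seed parent, so their share was the higher one in replicate 2. Both cutoffs were chosen after the values were seen.

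**Figure D2:**
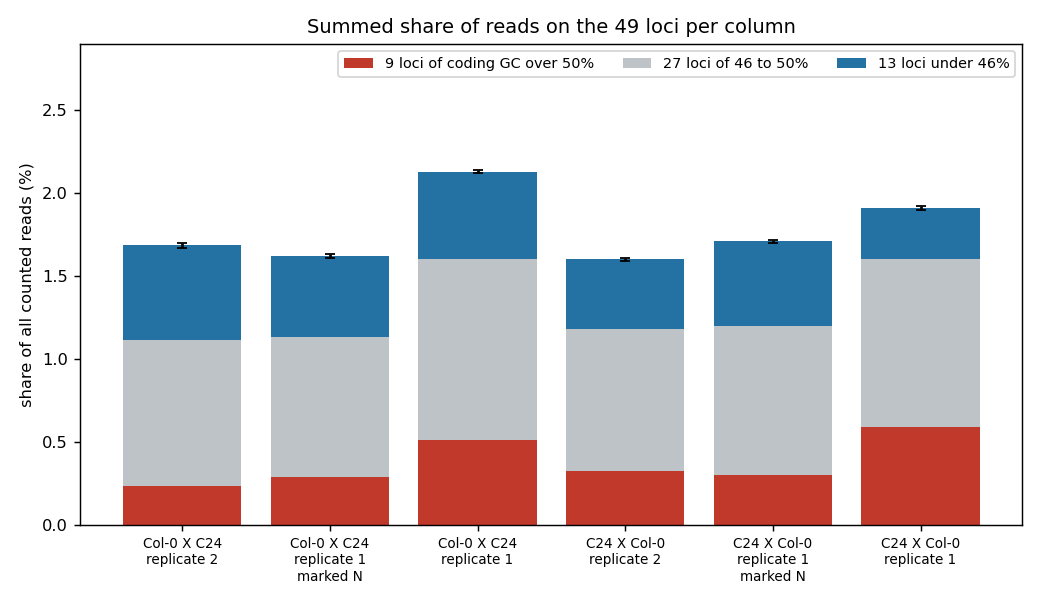
Share of all counted reads (%) that fell on the 49 loci in each column, stacked by coding GC content, with the 95% Wilson interval of the whole as a bar. The red part (9 loci over 50%) is 0.236% to 0.326% in the columns of replicate 2 and marked N, and 0.512% and 0.588% in the unmarked columns of replicate 1.

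The first comparison asked how the treated replicate 2 differed from replicate 1 on these loci. The 3 loci of stalk protein P1, EMB2296 (L2/L8), RACK1A and P40, the major locus of the small subunit protein SA, fell most, to levels 2.84 to 6.88-fold lower in replicate 2, while the loci for L10a, L23a, S15a and S24 had log2 fold changes between -0.17 and 0.22. In edgeR's quasi-likelihood test with cross as a term, 12 of 49 members (24.5%) were lower at a Benjamini-Hochberg adjusted p under 0.05 and 0 were higher, where 6.68% of the 16779 loci tested were lower and 3.23% higher. DESeq2 called 20 members lower and 0 higher, and 26 members had an unadjusted p under 0.05 in edgeR, as did 24.6% of loci. The median log2 fold change of the members was -0.83, against 0.07 over all loci tested. With library totals in place of TMM the median of all loci moved to 0.59 and that of the members to -0.30. With these totals 0 members passed (0.495% of loci were lower and 0.965% higher). The gap between the members and all loci stayed at -0.89, because a change of scale shifts all loci by nearly the same amount. Both libraries of replicate 2 lay below both of replicate 1 for 36 of the 49 members, against 22.9% of all loci tested, and above them for 0, against 24.2%. In 40 members replicate 2 was the lower one in both crosses, against 33.4% of loci. Markers of other tissues moved as well: 3 of 5 green tissue markers were lower (median log2 fold change -1.21), 1 of 6 tested endosperm markers was higher and 1 lower, and 1 of 2 tested embryo markers was higher. Of the 7 seed coat markers 0 passed in edgeR, with 2 at an unadjusted p under 0.05 and a median of -0.61. The part of these tissues in the fall of the members was not tested. These marker values are without offsets on coding GC, and those with offsets are given below.

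P1, an acidic protein of the stalk, fell at all 3 of its loci. AT5G47700 had 38.6 CPM in replicate 2 and 434 in replicate 1 with a Col-0 seed parent, and 175 in replicate 2 and 768 in replicate 1 with a C24 seed parent. Both treated libraries lay below both untreated ones, and the log2 fold change was -2.78 ± 0.40 (SE, edgeR, adjusted p = 0.00129). AT1G01100 had 71.5 and 576 with a Col-0 seed parent and 259 and 1019 with a C24 seed parent, replicate 2 before replicate 1. Its log2 fold change was -2.47 ± 0.37 (edgeR, adjusted p = 0.00144). AT4G00810, on average the least abundant of the P1 loci, had 39.1 and 145 with a Col-0 seed parent and 95 and 282 with a C24 seed parent. It changed less, at -1.71 ± 0.29 on the log2 scale (edgeR, adjusted p = 0.00258), and its groups did not overlap either. P0, the base of the stalk, behaved unevenly between its loci. AT3G09200 had 406 and 812 CPM in replicates 2 and 1 with a Col-0 seed parent and 635 and 1614 in those with a C24 seed parent, a log2 fold change of -1.16 ± 0.34 with an edgeR adjusted p of 0.0503. AT3G11250 had 91.0 and 121 with a Col-0 seed parent and 129 and 152 with a C24 seed parent, which overlapped, at -0.31 ± 0.27 (adjusted p = 0.535).

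Among the 23 large subunit loci 20 had a log2 fold change below 0, and 5 were lower past the threshold. EMB2296 had 92.3 CPM in replicate 2 and 825 in replicate 1 with a Col-0 seed parent, and 494 in replicate 2 and 1872 in replicate 1 with a C24 seed parent. Its log2 fold change was -2.52 ± 0.41 (edgeR, adjusted p = 0.00221), and the pairs differed in size, at -3.16 with a Col-0 seed parent and -1.92 with a C24 seed parent. The other 4 were AT2G19730 (L28), BBC1 (AT3G49010, L13), AT3G53430 (L12, a protein of the stalk base) and AT1G70600 (L27a), with log2 fold changes of -1.49, -1.35, -1.28 and -1.21. At the other end stood PGY2 (AT1G33140, L9) and PGY1 (AT2G27530, L10a), named for the piggyback mutants that affect leaf polarity. PGY1 had 509 and 528 with a Col-0 seed parent and 365 and 265 with a C24 seed parent, replicate 2 before replicate 1, with a log2 fold change of 0.22 ± 0.32 and an edgeR adjusted p of 0.724. PGY2 had 418 and 549.6 with a Col-0 seed parent and 509.9 and 265 with a C24 seed parent, so the pairs pointed opposite ways. A caution belongs to PGY2: 52.7% of the 80-base windows of its longest transcript are also in its neighbour AT1G33120, and how reads that fit both were counted is not given in the sources used here. RPL23AA (AT2G39460) and RPL23AB (AT3G55280), the L23a loci at the exit of the peptide tunnel, were at -0.02 ± 0.31 and 0.02 ± 0.30.

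Among the 20 small subunit loci 18 had a log2 fold change below 0. Past the threshold 3 were lower: P40 (AT1G72370, SA), RS27A (AT3G61110, S27, a zinc finger protein) and RPS28 (AT5G64140, S28). P40 had 298 and 832 CPM in replicates 2 and 1 with a Col-0 seed parent and 498 and 1472 in those with a C24 seed parent. The log2 fold change of P40 was -1.51 ± 0.34 (edgeR, adjusted p = 0.0138), with no overlap. The S6 loci, whose protein is the substrate of S6 kinase in the TOR pathway, did not pass: RPS6 (AT4G31700) had 459.9 and 652 with a Col-0 seed parent and 448 and 783 with a C24 seed parent, at -0.64 ± 0.33 (edgeR, adjusted p = 0.246). EMB3010 (AT5G10360), its paralog, was at -1.01 ± 0.33 (adjusted p = 0.0744). RPS15A (AT1G07770) had 383 and 352 with a Col-0 seed parent and 276 and 283 with a C24 seed parent, at 0.06 ± 0.30. The S24 loci AT5G28060 and AT3G04920 were at 0.07 ± 0.30 and -0.17 ± 0.31. RACK1A (AT1G18080) had 210.5 and 667 with a Col-0 seed parent and 369 and 1181 with a C24 seed parent, at -1.66 ± 0.33 (edgeR, adjusted p = 0.00709). Its paralogs RACK1B (AT1G48630) and RACK1C (AT3G18130) were at -0.28 and -0.46, with edgeR adjusted p of 0.581 and 0.348.

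The composition of the coding sequence moved with these changes. Coding GC ran from 42.48% (AT3G04920) to 53.10% (AT1G01100) over the members, with a median of 47.88%, against 44.31% over all loci tested. Across the 49 members the log2 fold change and coding GC had a Pearson r of -0.84 and a Spearman rho of -0.80, with the same 4 libraries behind every point. Over all 16442 tested loci with a coding sequence these were -0.59 and -0.62. Within each cross the members' ratio of replicate 2 to replicate 1 gave a Pearson r of -0.77 with a Col-0 seed parent and -0.78 with a C24 seed parent. Genes are not independent replicates, and these values are descriptions. Of the 9 members above 50% coding GC 7 were lower past the threshold, of the 27 between 46% and 50% 5, and of the 13 under 46% 0 (edgeR, with 2 at an unadjusted p under 0.05). In the same order 9, 26 and 9 members had a log2 fold change below 0. When smooth offsets on coding GC were given to every library, a setting added after the data were seen, 1 member was past the threshold, AT5G47700 at -1.12 on the log2 scale (edgeR, adjusted p = 0.014), against 4.00% of loci lower and 3.67% higher. EMB2296 was then at -0.94 with an adjusted p of 0.0831, and the median of the members was -0.20. The median of the green tissue markers changed sign with these offsets, to 0.6965, with 2 of the 5 higher and 1 lower past the threshold. Of the 7 seed coat markers 3 were then lower and 0 higher, with a median of -1.004. Of the 6 tested endosperm markers 1 was higher and 0 lower, and of the 2 tested embryo markers 1 was higher. Whether base composition caused the change of the members or of the markers was not tested. The stretches below are the first 150 bases of the longest coding exon of the pair that fell most and of PGY1 and RPL23AB, which did not pass, and show the difference in base composition, with G and C in capitals. They are read 5′ to 3′ on the coding strand from TAIR10.1: AT5G47700 at chr5:19328230-19328379 on the minus strand with 50% G and C, EMB2296 at chr2:7837151-7837300 on the plus strand with 55.3%, PGY1 at chr2:11764219-11764368 on the minus strand with 43.3% and RPL23AB at chr3:20501000-20501149 on the plus strand with 46%.
AT5G47700: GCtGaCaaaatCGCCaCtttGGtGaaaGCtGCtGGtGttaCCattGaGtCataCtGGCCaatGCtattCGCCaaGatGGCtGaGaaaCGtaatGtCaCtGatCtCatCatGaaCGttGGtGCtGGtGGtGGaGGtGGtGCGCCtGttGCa
EMB2296: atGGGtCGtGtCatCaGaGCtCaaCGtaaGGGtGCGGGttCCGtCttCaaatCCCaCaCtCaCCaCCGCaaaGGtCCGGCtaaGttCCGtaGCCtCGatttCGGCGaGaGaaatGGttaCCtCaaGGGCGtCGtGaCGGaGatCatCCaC
PGY1: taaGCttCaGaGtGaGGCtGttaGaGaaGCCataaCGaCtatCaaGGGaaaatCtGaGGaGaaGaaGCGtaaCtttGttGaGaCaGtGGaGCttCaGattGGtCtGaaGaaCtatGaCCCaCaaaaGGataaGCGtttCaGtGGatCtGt
RPL23AB: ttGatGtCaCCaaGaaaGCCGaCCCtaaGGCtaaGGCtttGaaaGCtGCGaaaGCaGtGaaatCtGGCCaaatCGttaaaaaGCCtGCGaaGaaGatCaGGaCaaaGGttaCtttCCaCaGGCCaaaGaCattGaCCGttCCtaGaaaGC

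**Figure D3:**
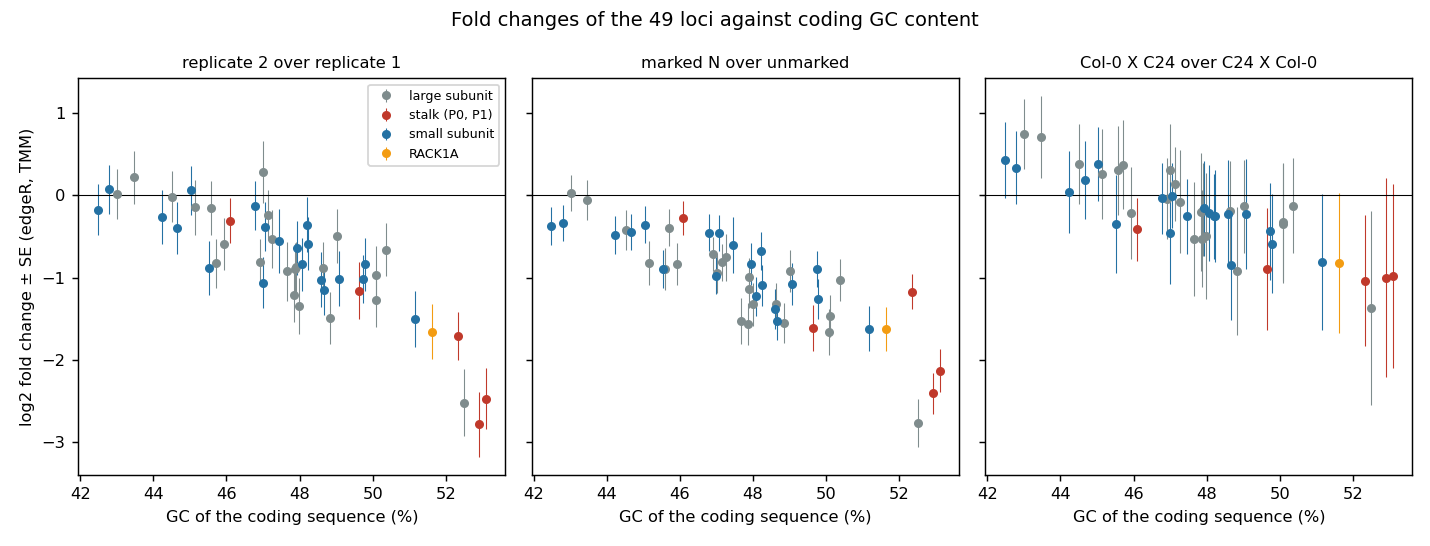
Log2 fold change ± SE of the 49 loci (edgeR, TMM) against the GC content of the coding sequence (%), for replicate 2 over replicate 1, marked N over unmarked, and the cross with the Col-0 seed parent over its reciprocal. Grey points are large subunit loci, red the stalk, blue the small subunit and orange RACK1A; in all 3 panels points lie lower with higher GC, and the error bars are longest in the panel of the crosses.

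The second comparison set the columns marked N against the unmarked columns of replicate 1. Nearly all members were lower in the marked columns, with EMB2296 (L2/L8) and the P1 loci AT5G47700 and AT1G01100 lowest and RPL23AB (L23a) and PGY1 (L10a) highest in log2 fold change. These comparisons share the unmarked columns of replicate 1 with the first one. In edgeR's test with cross as a term 35 of 49 members (71.4%) were lower and 0 higher, where 7.75% of 16346 loci were lower and 0.930% higher. The p-values measure only the spread between 2 pairs of columns. DESeq2 called 34 members lower and 0 higher, and 40 members had an unadjusted p under 0.05 in edgeR, as did 19.4% of loci. The median log2 fold change of the members was -0.95 and that of all loci 0.05. With library totals in place of TMM these were -0.08 and 0.91 and 12 members were then lower and 3 higher, where 1.54% of loci were lower and 54.1% higher. Both marked columns lay below both unmarked ones for 45 of 49 members, against 16.0% of all loci tested, and above them for 0, against 15.6%. The marked column was the lower one in both crosses for 47 members, against 30.6% of loci. All 5 green tissue markers were lower past the threshold in the marked columns too (median log2 fold change -1.59), as were 3 of 7 seed coat markers and 1 of 6 tested endosperm markers. The seed coat markers summed to 3687 and 6278 CPM in the marked columns with Col-0 and with C24 as seed parent, against 10242 and 20549 CPM in the unmarked ones. DFR, BAN and LDOX, at log2 fold changes of -2.14, -1.72 and -1.3, were the 3 that passed and made up most of these sums. The median of all 7 seed coat markers was -0.20, with 2 above 0. Green tissue markers summed to 378 and 569 CPM, against 1092 and 2716 CPM, and the part of these tissues in the result was not tested. A marked column was no simple subset of the unmarked one: with 0.597 times the reads with a Col-0 seed parent and 0.556 times with a C24 seed parent, it held more reads than the unmarked column at 41.8% and 60.9% of the loci with reads. Among the members this held for 0 with a Col-0 seed parent and for 8 with a C24 seed parent.

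By role, 18 of the 23 large subunit loci, 12 of the 20 small subunit loci, 4 of the 5 stalk loci and RACK1A were lower past the threshold in the columns marked N. EMB2296 had 168 and 198 CPM in the marked columns with Col-0 and with C24 as seed parent, against 825 and 1872 in the unmarked ones, a log2 fold change of -2.77 ± 0.29 (edgeR, adjusted p = 1.37e-18). AT5G47700 had 103 and 115 in the marked columns, against 434 and 768, at -2.40 ± 0.25 (adjusted p = 3.37e-19 in edgeR). AT1G01100 had 152 and 201, against 576 and 1019, at -2.13 ± 0.26. The unmarked columns differed more between the crosses than the marked ones did at each of these loci. The most abundant member, emb2386, had 378 and 465 in the marked columns, against 1089 and 1613 in the unmarked ones, at -1.66 ± 0.29 (edgeR, adjusted p = 3.64e-07). RACK1A had 267 and 309.7, against 667 and 1181, at -1.63 ± 0.27 (edgeR, adjusted p = 8.13e-08). The 14 members that did not pass included both L23a and both S24 loci, PGY1, RPS15A, the P0 locus AT3G11250 and RPSAb. PGY1 had 347 and 375 in the marked columns, against 528 and 265 in the unmarked ones, at -0.05 ± 0.24 (adjusted p = 0.942, edgeR), so its pairs pointed opposite ways. RPL23AB had 221 and 179.7, against 282 and 133, at 0.03 ± 0.22.

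Coding GC ran along with this difference too, with a Pearson r of -0.84 and a Spearman rho of -0.84 over the 49 members, and of -0.65 and -0.64 over 16067 loci. All 9 members above 50% coding GC were lower past the threshold, as were 22 of the 27 between 46% and 50% and 4 of the 13 under 46%. With offsets on coding GC 25 members were lower past the threshold and 0 were higher, against 3.35% and 0.710% of loci, and the median of the members was -0.61. Levels per length moved with it less, with a Pearson r of -0.39 over the members, against -0.17 for replicate 2 over replicate 1. Across all 6 columns the levels of the 49 members were most alike between the 2 marked columns (Pearson r of log2 levels 0.97) and least alike between replicate 2 with a Col-0 seed parent and replicate 1 with a C24 seed parent (0.55).

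The third comparison was between the reciprocal crosses. No member passed in edgeR's test of the 4 libraries without a block, which called 0 of the 16779 loci tested (0%). At an unadjusted p under 0.05 there were 0 members against 7.46% of loci, and DESeq2 called 0 members. The spread in this fit was wide, with an SE of 1.18 on the log2 scale for EMB2296 against 0.40 when the replicate number was a block, so that the absence of a call does not show that the crosses were alike. The median log2 fold change of the members was -0.21 with TMM, with all loci at -0.01, and 0.16 with library totals, with all loci at 0.29, so the sign of the median depended on the scale. Both libraries with a Col-0 seed parent lay above both with a C24 seed parent for 8 members (20.3% of all loci tested did so) and below them for 1 member (16.7% of loci). The 8 were the L5 loci ATL5 (AT3G25520) and RPL5B (AT5G39740), PGY1, both L23a loci, RPS15A and both S24 loci, and the 1 was AT3G11250 (P0). Of the 49 members 19 had differences of opposite sign at replicate 2 and replicate 1.

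With the replicate number as a block, which the shared treatment warrants, 4 members were lower with a Col-0 seed parent than with a C24 seed parent (8.16%, against 4.42% of loci lower and 2.24% higher). These were EMB2296 and the P1 loci AT5G47700, AT1G01100 and AT4G00810. EMB2296 was at -1.81 ± 0.40 (edgeR, adjusted p = 0.0171), or 3.50-fold lower with a Col-0 seed parent, and its difference was -2.42 at replicate 2 and -1.18 at replicate 1. The P1 loci were at -1.50, -1.34 and -1.13, with edgeR adjusted p of 0.0366, 0.042 and 0.0319. In the untreated pair alone AT5G47700 had 434 with a Col-0 seed parent and 768 with a C24 seed parent, and in the treated pair 38.6 and 175. The ranges of the crosses overlapped for all 4 loci. In the same fit all 5 green tissue markers were lower with a Col-0 seed parent (median log2 fold change -2.04), and 1 of 6 tested endosperm markers was lower, with all 6 below 0 (median -1.24). All 7 seed coat markers were below 0 (median -0.46), with 0 past the threshold in edgeR and 1 at an unadjusted p under 0.05. The part of these tissues in the difference was not tested. With coding GC offsets beside the block 0 members passed in edgeR, 3 had an unadjusted p under 0.05, and the median of the members was 0.22. Over the members the difference between the crosses followed coding GC with a Pearson r of -0.85 and a Spearman rho of -0.79, and with r of -0.76 at replicate 2 and -0.75 at replicate 1. RPL23AB and PGY1 had the highest values, at 0.74 ± 0.43 and 0.70 ± 0.50 without the block (edgeR, adjusted p = 0.802 and 0.843). PGY1 had 509 and 528 in replicates 2 and 1 with a Col-0 seed parent, against 365 and 265 in those with a C24 seed parent.

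Paralogs of a protein are counted in the same library, so their shares need no scaling between libraries. Shares were taken per length of the longest transcript over the listed loci of each of 16 proteins, and over RACK1A, RACK1B and RACK1C, 17 sets in all. The same locus led in all 4 libraries in 14 of the 17, and in all 6 columns in 12. The most uneven set was SA, where P40 held 96.9% and 98.5% in replicates 2 and 1 with a Col-0 seed parent, and 98.0% and 98.9% in those with a C24 seed parent. RS27A held 81.3% and 90.4% of S27 with a Col-0 seed parent and 91.0% and 93.1% with a C24 seed parent, over AT2G45710. AT3G09200 held 80.4% and 86.0% of P0 with a Col-0 seed parent, and 81.9% and 90.7% with a C24 seed parent. At the even end, AT5G02870 held 51.3% to 54.9% of L4 over the 6 columns, and the L5 loci ATL5 and RPL5B changed places between columns. AT1G01100 held 46.1% to 51.4% of P1 and led in every column. Leadership also changed within S6 and S18, where RPS6 and RPS18C (AT4G09800) led in 3 of the 4 libraries.

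RACK1 moved most with the replicate number. RACK1A held 43.6% of the reads per length of the 3 loci in replicate 2 and 64.0% in replicate 1 with a Col-0 seed parent, and 58.9% in replicate 2 and 78.6% in replicate 1 with a C24 seed parent. The columns marked N gave 49.4% with a Col-0 seed parent and 54.8% with a C24 seed parent. Within P1 the locus AT4G00810 held 29.2% and 14.4% in replicates 2 and 1 with a Col-0 seed parent. It held 20.4% and 15.6% in those with a C24 seed parent, and 26.3% and 27.7% in the columns marked N. AT5G47700 held less than AT4G00810 in replicate 2 with a Col-0 seed parent (22.8%). The same held in the column marked N with a C24 seed parent (24.3%). AT3G09200 of P0 held 75.5% in both columns marked N, against 86.0% and 90.7% in the unmarked ones. In 14 of the 17 sets the share of the leading locus differed in the same direction between replicate 2 and replicate 1 in both crosses. Between the crosses the shares overlapped in 13 of the 17 and did not in 4. STV1 (L24, which supports reinitiation of translation after upstream reading frames) held 71.8% and 65.2% with a Col-0 seed parent, against 64.2% and 61.8% with a C24 seed parent, over RPL24A (AT2G36620). AT3G53890 (S21) held 63.8% and 62.7%, against 59.3% and 59.3%. RPL23AA held 57.8% and 53.4% of L23a, against 58.9% and 64.3%, and RS27A was the fourth. None of these can reach a two-sided exact p under 0.333.

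**Figure D4:**
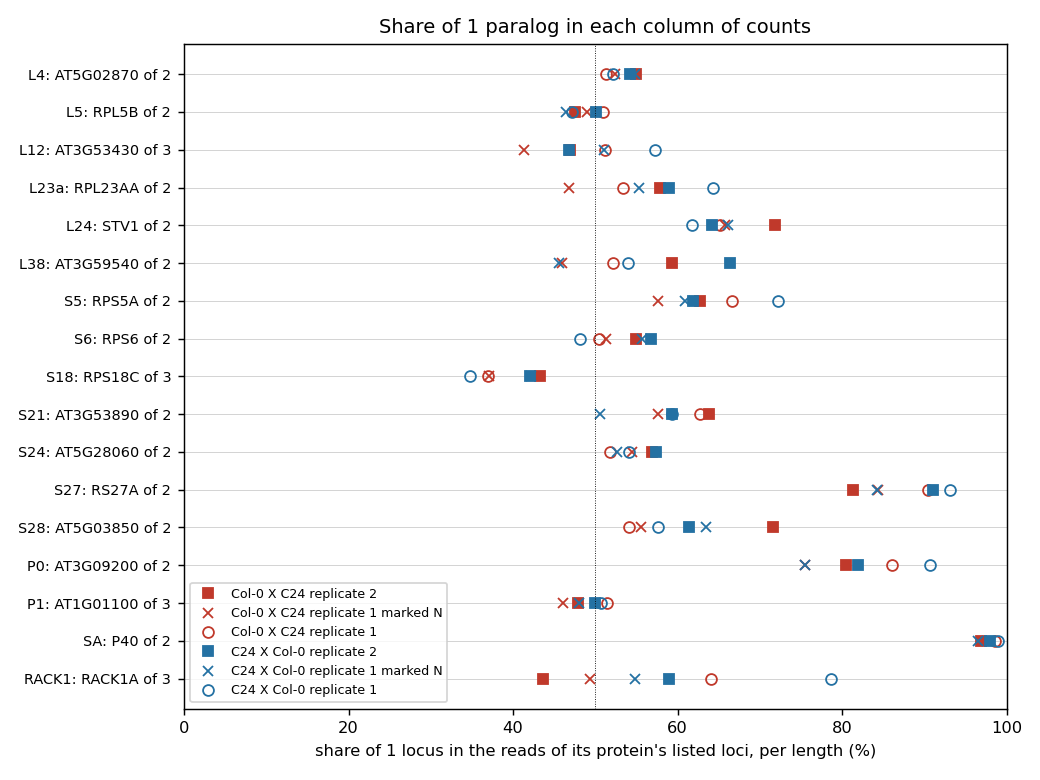
Share (%) of 1 locus in the reads per length of the listed loci of its protein, 1 row per protein, with the dotted line at 50%. Red is Col-0 X C24 and blue is C24 X Col-0; filled squares are replicate 2, crosses the columns marked N and open circles replicate 1, and the row of RACK1A spreads widest, from 43.6% to 78.6%, while P40 stays at 96.5% to 98.9%.

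Sequence shared with other loci was counted in exact windows of 80 bases. The sources give different read lengths for these libraries, the shorter of which was taken, and trimmed reads can be shorter still, so the shares are a lower limit of the ambiguous sequence. No listed pair shared such a window, and 48 of the 49 members had at most 4.02% of their windows in any other locus, PGY2 being the exception. The S28 pair shows how far copies of the same protein differ in bases: AT5G03850 and RPS28 have intronless coding sequences of 195 bases with 84.1% identity, and the longest identical run is 23 bases. AT5G03850 held 71.6% and 54.1% of S28 in replicates 2 and 1 with a Col-0 seed parent, and 61.4% and 57.6% in those with a C24 seed parent. The sequences are from TAIR10.1, at chr5:1028542-1028736 and chr5:25667529-25667723, both on the minus strand and read 5′ to 3′, and capitals mark the 31 bases that differ.
AT5G03850: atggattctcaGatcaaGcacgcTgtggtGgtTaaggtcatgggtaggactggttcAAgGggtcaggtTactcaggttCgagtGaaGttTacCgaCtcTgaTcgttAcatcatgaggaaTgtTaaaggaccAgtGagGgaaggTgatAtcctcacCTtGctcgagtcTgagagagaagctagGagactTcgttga
RPS28: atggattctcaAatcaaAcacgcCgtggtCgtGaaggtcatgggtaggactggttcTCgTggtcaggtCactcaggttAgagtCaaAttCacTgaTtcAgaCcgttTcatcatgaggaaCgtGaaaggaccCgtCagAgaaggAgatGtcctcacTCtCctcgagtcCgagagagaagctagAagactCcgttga

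Upstream of the genes the members had 2 motifs known from plant ribosomal protein promoters. Windows ran from 250 bases before to 50 bases after the annotated start, and both strands were searched. The telo box (AAACCCTA) was in 26 of 49 windows (53.1%), against 6.17% of the windows of 26711 nuclear protein-coding loci, and site II (TGGGCC or TGGGCT) in 36 (73.5%), against 22.0%. Both were in 20 windows (40.8%), against 2.26%. Other cytosolic ribosomal protein loci, 159 by annotated function, name and location, had the telo box in 48.4% and site II in 78.0%. A match is a description and not a bound site. AT3G59540 (L38), rank 13 of 49 by level per length, is the most abundant member with both motifs within the 250 bases before the start. Members with a higher level and both motifs in the longer window, such as STV1 and ATL5, have at least 1 of them after or across the start. The 250 upstream bases of AT3G59540 at chr3:21996841-21997090 (TAIR10.1, minus strand, 5′ to 3′ towards the gene) are shown with 1 telo box, in reverse orientation, and 2 site II elements in capitals.
AT3G59540: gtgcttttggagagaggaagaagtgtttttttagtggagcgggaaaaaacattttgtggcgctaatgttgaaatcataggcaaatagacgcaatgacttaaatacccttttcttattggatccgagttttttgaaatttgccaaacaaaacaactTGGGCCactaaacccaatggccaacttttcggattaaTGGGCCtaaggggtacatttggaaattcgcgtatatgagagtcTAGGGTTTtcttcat

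Other genes of translation were read from the same tests. Among all loci tested 6.68% were lower and 3.23% higher in replicate 2, and 7.75% lower and 0.930% higher in the columns marked N. Of the 147 tested other cytosolic ribosomal protein loci 47 were lower and 0 higher in replicate 2, with a median log2 fold change of -0.74, against -0.83 for the members. In the columns marked N 89 were lower and 0 higher, with a median of -0.76, and their log2 fold change ran along with coding GC too (Pearson r of -0.68 for replicate 2 over replicate 1 and -0.72 for marked N over unmarked). The annotation does not settle the compartment of every one of these proteins. Of 14 translation factor genes 3 were lower in replicate 2 and 9 in the columns marked N, with 0 higher. Of 20 ribosome biogenesis genes, many of which act in the nucleolus, 3 were higher and 0 lower in replicate 2, with a median of 0.67. In the columns marked N 3 of them were lower and 0 higher, with a median of 0.19 and 12 of the 20 above 0. Of 6 genes listed around the TOR and S6 kinase pathway 0 passed in edgeR in either comparison, with 1 at an unadjusted p under 0.05 in replicate 2.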

How the data were processed

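Messenger RNA of whole seeds was sequenced by the authors after poly-A selection, aligned with BWA to the cDNAs of all TAIR10 gene models and merged per locus, and they deposited whole-number read counts per locus with no normalization. SAMtools 0.1.7 is named in the submitters' processing notes. How reads that fit several loci were counted, and whether strand was used, is not given in the sources used here. The 4 unmarked columns matched the 4 mRNA libraries by name, the 2 columns marked N were kept apart, and 5 amplicon libraries were not analysed here. Replicate 2 of both crosses had the nuclease treatment.

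Loci with at least 10 counts in at least 2 libraries were tested with edgeR 4.0.16 (R 4.3.3, limma 3.58.1) by robust quasi-likelihood fits with TMM scaling, Benjamini-Hochberg adjustment over all loci tested and a threshold of 0.05. The comparison of the crosses had no block, and those of replicate and of the N columns had cross as a term. Standard errors were derived from the fold change and F. The methods call the libraries of a cross biological replicates, and with 1 treated and 1 untreated library a cross the spread between them holds the treatment too. Same-numbered libraries deviated together, with a Pearson r of 0.55 over 16779 loci between the replicate ratios of the reciprocal crosses, and the methods state the shared treatment, so the replicate number pairs the libraries. Alternatives were DESeq2 1.42.0, other scalings, no filter, the replicate block, each library left out and, added after the data were seen, offsets on GC content. The fits were tested on simulated data. Loci named with values were the 5 most abundant per length, the 5 lowest and 5 highest log2 fold changes of each comparison, loci of the paralog sets and RACK1, and any other was chosen after its values were seen. Members and gene lists were chosen with earlier results of these data known. Gene models, GC content and sequences are from RefSeq, TAIR10.1.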

Additional observations from a re-analysis of the deposited data

Results flagged for a closer look

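For 9 members the ratio of replicate 2 to replicate 1 had opposite signs in the 2 crosses, and for 2 members the ratio of the column marked N to the unmarked one did. With 1 ratio per cross these differences were not tested. For replicate 2 over replicate 1 the log2 ratios were -0.40 with a Col-0 seed parent and 0.94 with a C24 seed parent for PGY2, whose reads cannot be told apart from AT1G33120 over much of its transcript. They were -0.052 and 0.46 for PGY1 and -0.32 and 0.33 for RPL23AB, in the same order of crosses. The other way round, Col-0 and C24 as seed parents gave 0.13 and -0.69 for RPS18C, 0.14 and -0.88 for AT5G03850 (S28), and 0.060 and -0.85 for AT2G45710 (S27). Ratios near 0 in both crosses were those of RPL23AA (-0.064 and 0.0031), RPS15A (0.12 and -0.034) and AT5G28060 of S24 (-0.066 and 0.18). For marked N over unmarked the log2 ratios with Col-0 and C24 as seed parents were -0.60 and 0.50 for PGY1 and -0.35 and 0.43 for RPL23AB.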

How the results depend on the processing

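Between the crosses 0 loci passed in the fit without a block, and the count over all loci depended on the fit: library totals gave 3 higher and 1 lower, DESeq2 116 and 186, no filter 199 and 386, and leaving out 1 library 0 to 14 higher and 0 to 35 lower. With the replicate block, which follows the pairing of the libraries by treatment, 376 loci were higher and 742 lower, and 4 members lower. With GC offsets beside the block these were 318 and 598, and with coding GC offsets 536 and 796, each with 0 members. The median of the members ran from -0.58 to 0.28 with 1 library left out, above 0 without replicate 2 of Col-0 X C24 (0.02) or replicate 1 of C24 X Col-0. For replicate 2 over replicate 1 (542 loci higher, 1121 lower, 12 members lower), library totals gave 162, 83 and 0 with a member median of -0.30, and a fit without the cross term gave 0, 0 and 0. DESeq2 gave 319 loci higher and 20 members lower, and no filter 927 loci higher. Coding GC offsets gave 658 loci and 1 member lower with a median of -0.20. The median ran from -0.87 to -0.58 with 1 library left out, values with no test, and was -0.577 and -0.583 without the treated or the untreated library of C24 X Col-0. For marked N over unmarked (152 loci higher, 1266 lower, 35 members lower, median -0.95), library totals gave 8836 loci higher and 251 lower, 3 members higher and 12 lower, and a median of -0.081. On that scale 20 of the 49 members had a log2 fold change above 0, against 1 with TMM. Among the 33 named members past the threshold on either scale, 8 changed sign: PGY1 (0.81), AT3G11250 (0.59), ATL5 (0.048), STV1 (0.030), AT3G59540 (0.053), RPS6 (0.029), AT5G03850 (0.19) and AT5G60670 (0.15). DESeq2 gave 1 locus higher and 767 lower, GC offsets 51 higher, coding GC offsets 539 lower with a median of -0.61, and C24 X Col-0 alone a median of -1.06. Among the paralog shares, raw reads in place of reads per length put AT5G28060 at 48.2% of S24, so that AT3G04920 had the larger mean share. RPL5B was at 46.8% of L5 on raw reads, where ATL5 led in all 4 libraries. Per length RPL5B led in 2 of the 4. The causes of these differences were not tested. Counts were lowest for RPSAb, at 38 to 80 reads, and reached 150 at AT5G47700 and 152 at AT4G00810 in replicate 2 of Col-0 X C24.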
